A study of Mus musculus with 12 samples.

Results

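The stiffness effect averaged over gel types was examined in mouse ear fibroblasts cultured on alginate hydrogels. It is the mean of the log2 change from 2 to 20 kPa on elastic gels and the same change on viscoelastic gels, and all 12 samples of the series entered it. Among the genes that rose on the stiffer gels of both types were members of ribosome assembly, nucleotide synthesis, splicing, protein folding and actin monomer binding. Among those that fell were the metallothioneins Mt1 and Mt2 and the zinc transporters Slc30a1 and Slc39a10. Also falling on both were 5 of 38 tested autophagy genes, against 1.12% of all tested genes, in a list written after its values had been seen. None of the 38 was called with offsets for exon length and GC content. The shared changes were small: the genes that met the criterion for both gel types had a median log2 change of 0.22 where they rose and −0.25 where they fell. Of the contractile genes, YAP targets and collagens, which are often read as stiffness markers, 6 of 31, none of 23 and 1 of 17 met that criterion, against 3.6% of all tested genes. The contractile share was above that of all genes. The counts of YAP targets and collagens were near it and do not set these lists apart from other genes.

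Cells sense the stiffness of a matrix by pulling on it through integrins, which couple the matrix to actin at focal adhesions. A stiff matrix resists the pull, and the tension drives actin polymerization, which releases the SRF cofactor MRTF from actin monomers, and the entry of YAP and TAZ into the nucleus. A viscoelastic matrix yields over time under the same pull, so that its resistance also depends on how fast it relaxes. Fibroblasts respond to stiff matrices with contraction, growth and matrix remodelling.

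The cells came from the ears of 1-month-old C57BL/6 mice, male and female, and were used at passage 2. On each gel 500000 cells were seeded and RNA was collected after 48 h. Alginate of one grade, coupled to an RGD peptide for adhesion, was crosslinked covalently with adipic acid dihydrazide for elastic gels and ionically with calcium for slow-relaxing viscoelastic gels. There were 4 groups with 3 replicates each: elastic gels of 2 kPa, elastic gels of 20 kPa, viscoelastic gels of 2 kPa and viscoelastic gels of 20 kPa. Stiffness was set by the amount of crosslinker, so stiffness and crosslinker amount cannot be told apart within a gel type. The study calls its replicates biological, but the labels do not say whether they were separate isolations, and the p-values measure only the spread between these samples.

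Read counts per gene totalled 36626221 to 43612804 per sample, and 14542 of 33246 listed genes passed the filter on low counts. Spread among replicates, apart from counting error, had a coefficient of variation of 7.5% in the common estimate. Levels are given as CPM, reads of a gene scaled to a common library size, with TMM normalization, and every adjusted p is from edgeR's quasi-likelihood test with Benjamini-Hochberg (BH) adjustment over all tested genes. Mitochondrial genes took 1.77% to 3.34% of counts, with the highest shares in replicate 2 of both viscoelastic groups (2.97% at 2 kPa and 3.34% at 20 kPa). The 10 fibroblast markers were all detected and summed to 58100 to 83100 CPM. Chondrocyte markers were also high, at 5160 to 7600 CPM in sum, with Col2a1 at a mean of 2840 CPM and Acan at 1140 CPM. Their ranges were 5710 to 7470 CPM on 2-kPa and 5160 to 5380 CPM on 20-kPa elastic gels, and 5760 to 7510 CPM and 6120 to 7600 CPM on the viscoelastic gels, and their part in the results was not tested. Summed markers of keratinocytes, endothelial cells, leukocytes and skeletal muscle stayed at or below 23.3 CPM, with Myf5 at 0. Adipocyte markers summed to 39.5 to 64.7 CPM, with Fabp4 and Cebpa called down for the average. All 3 tested adipocyte markers were lower at 20 kPa on elastic gels but higher at 20 kPa on viscoelastic gels. Melanocyte and Schwann cell markers summed to 57.5 to 104 CPM with Tyr at 0, and mural cell markers to 293 to 568 CPM. Of the other markers, Acan, Sox5, Cd68, Notch3 and Fn1 were called down for the average. Acan fell by 0.50 on elastic gels but by 0.046 on viscoelastic gels. In bulk RNA, a change in the share of a cell type and a change of RNA per cell cannot be told apart.

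The averaged effect passed an adjusted p under 0.05 for 1474 genes (10.1% of those tested), of which 876 rose (6.02%) and 598 fell (4.11%). An average can be carried by one gel type alone. Of the 1474 genes, 866 also passed on elastic gels only, 136 on viscoelastic gels only, 45 on both and 427 on neither, and 187 (12.7%) had opposite signs on the gel types. Genes were therefore taken to follow stiffness on both gel types only if they were called for the average, had the same sign on both and had an unadjusted p under 0.05 on each gel type. This left 523 genes (3.6%), 360 that rose (2.48%) and 163 that fell (1.12%), or 35.5% of the called genes. For 241 of them neither gel type alone passed the adjusted threshold. By comparison, 2029 genes (14%) were called on elastic gels and 331 (2.28%) on viscoelastic gels. The viscoelastic count was 9 without viscoelastic 20 kPa replicate 3, 36 without replicate 1 of that group, 154 with the replicate number as a block and 760 with DESeq2. Among the genes called on both gel types by the main test, 41 changed in the same direction and 69 in opposite directions.

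Over all tested genes, 7645 (52.6%) had the same sign on elastic and viscoelastic gels, comparisons that share no sample. The interaction, which tests the difference between the gel types, passed for 1100 genes (7.56%). It passed for 5 of the 523 shared genes, namely Apbb1ip, Steap3, Tmsb4x, Crabp1 and Cpeb2. The criterion for shared genes already removes most genes that could differ between the gel types. The low count is therefore no test of whether the shared genes respond alike. The change was larger on elastic gels for 292 of the 523 and larger on viscoelastic gels for 231. In 738 genes (5.07%) the 3 samples at 20 kPa did not overlap the 3 at 2 kPa on either gel type, in the same direction, and 574 of these were called for the average.

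**Figure D1:**
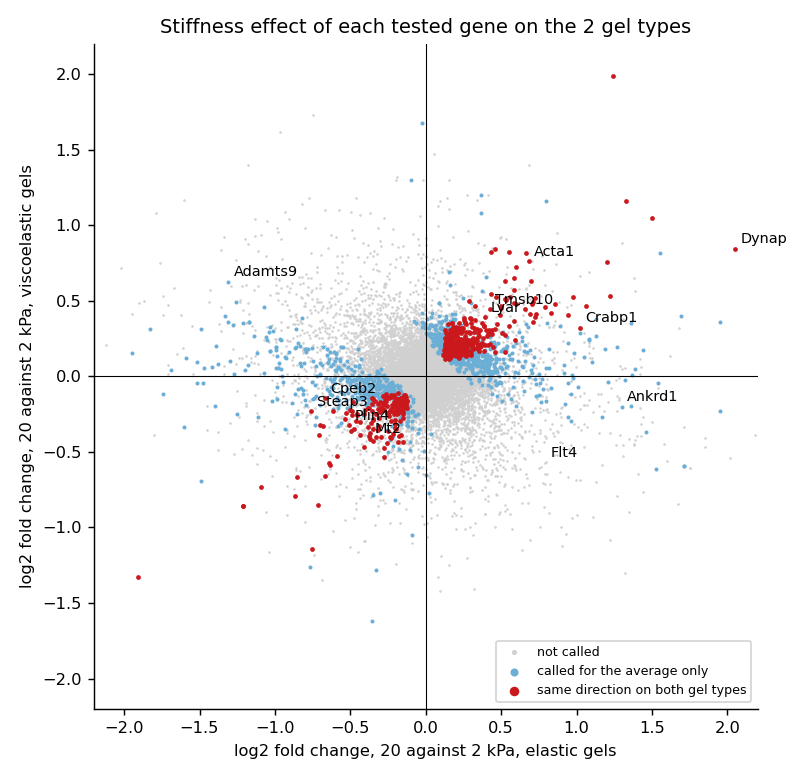
Each point is a tested gene, with its log2 fold change from 2 to 20 kPa on elastic gels (x axis) and on viscoelastic gels (y axis). The 523 genes that followed stiffness in the same direction (red) lie in the upper right and lower left quadrants, while Adamts9 and Flt4 lie in the others, and 2 genes fall outside the axes.

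Basp1, a membrane protein that binds calmodulin and is abundant in growing neurites, had the lowest adjusted p of the genes that rose. Its level was 55.8, 53 and 54.1 CPM on 2-kPa elastic gels and 77.1, 74.7 and 79.8 CPM on 20-kPa elastic gels. On viscoelastic gels it was 76.2, 74.1 and 74.3 CPM at 2 kPa and 86.4, 92.1 and 95.1 CPM at 20 kPa. Every 20-kPa sample was above every 2-kPa sample of its gel type, and the level at 20 kPa on elastic gels was close to that at 2 kPa on viscoelastic gels. Basp1 was picked among called genes without overlap on either gel type. So were, among others, Tmsb10, S100a10, Lyar, Steap3, Acot11, Lgr4, Col4a5 and Mt2. In these genes the absence of overlap was a condition of the choice and adds no support. The averaged log2 change was 0.40 ± 0.038 (SE, adjusted p = 0.000384), a 1.32-fold rise. The gene lies at chr15:25363277-25413764 (mm10).

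Tmsb10, a thymosin that binds actin monomers, was at 118, 119 and 114 CPM on 2-kPa and 158, 157 and 157 CPM on 20-kPa elastic gels. It was at 176, 148 and 190 CPM on 2-kPa and 222, 229 and 248 CPM on 20-kPa viscoelastic gels. Neither gel type showed overlap, and the log2 changes of 0.42 and 0.44 were nearly equal (average 0.43 ± 0.055, adjusted p = 0.000954). S100a10, the annexin A2 partner, was at 96.5, 89.3 and 91.9 CPM against 124, 113 and 130 CPM on elastic gels and at 111, 107 and 107 CPM against 132, 135 and 136 CPM on viscoelastic gels. Its average was 0.35 ± 0.042 (adjusted p = 0.000727). The related calcium-binding proteins S100a6 and S100a11 rose too, by 0.31 and 0.27, so that 4 of 9 tested S100 genes rose and none fell, in a list written after these values had been seen.

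Other genes that rose and did not overlap on either gel type were Apbb1ip, an adaptor between Rap1 and talin (0.42, adjusted p = 0.000794), and Pdlim1, a PDZ and LIM protein of actin stress fibres (0.50, adjusted p = 0.00167). The secreted genes among them were Ccbe1, which promotes VEGF-C processing (0.65, adjusted p = 0.00167), and Sema3a, a guidance cue (0.62, adjusted p = 0.00183). Cacybp, Mmd, Ybx3, an RNA-binding cold shock protein, and Eif2s2, the beta subunit of the initiation factor eIF2, rose by 0.34, 0.32, 0.39 and 0.34. Apbb1ip rose more on elastic gels, by 0.59 against 0.24 (interaction, adjusted p = 0.0447), as did Crabp1, a retinoic acid binding protein, by 1.02 against 0.32 (adjusted p = 0.0405).

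The 7 shared genes that changed by more than 1 on the log2 scale were all of low level, with means of 0.144 to 1.7 CPM. They included Gm5820, a predicted gene with the largest shared rise (1.61, mean 0.265 CPM), Nat8 with the largest fall (−1.62, mean 0.144 CPM), and Dynap and Areg, which are described here. Dynap, an activator of AKT signalling, was at 0.952, 0.49 and 0.796 CPM on 2-kPa and 2.38, 2.9 and 4.07 CPM on 20-kPa elastic gels. It was at 1.22, 1.15 and 0.764 CPM on 2-kPa and 2.08, 1.65 and 1.91 CPM on 20-kPa viscoelastic gels, again without overlap. Its averaged log2 change was 1.45 ± 0.18 (adjusted p = 0.000931). The EGF receptor ligand Areg was at 0.309, 0.367 and 0.302 CPM against 0.84, 0.57 and 1.41 CPM on elastic gels and at 0.257, 0.24 and 0.215 CPM against 0.585, 0.518 and 0.376 CPM on viscoelastic gels (average 1.28 ± 0.25, adjusted p = 0.00791). Areg was below 1 CPM in all but 1 sample, and Dynap was above it in every 20-kPa sample. Of the 523 genes, 51 changed by more than 0.5.

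**Figure D2:**
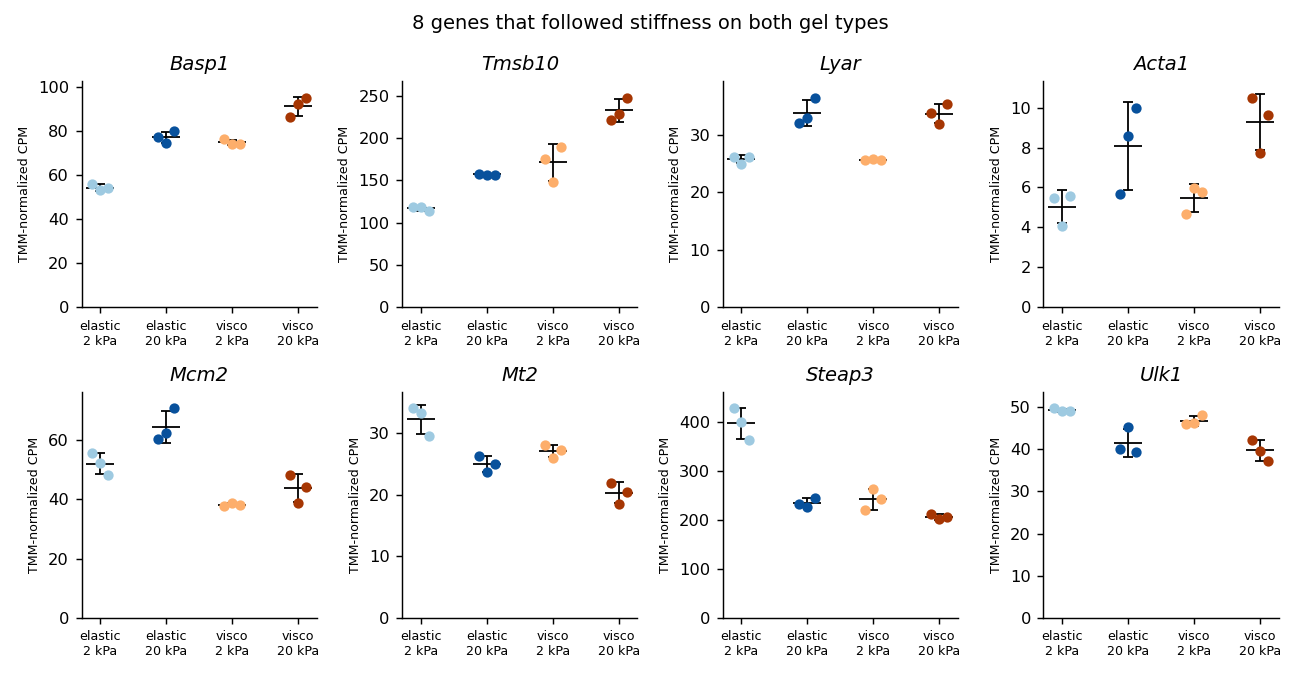
TMM-normalized CPM of Basp1, Tmsb10, Lyar, Acta1, Mcm2, Mt2, Steap3 and Ulk1 in each sample (points), with the mean and SD of the 3 replicates (black). In Basp1, Tmsb10, Lyar, Acta1, Mt2, Steap3 and Ulk1 the stiffnesses did not overlap on either gel type, while Mcm2 had samples at an equal 38.9 CPM at 2 and 20 kPa on viscoelastic gels.

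Among genes that fell, Steap3, an endosomal reductase of iron and copper, was at 428, 401 and 363 CPM on 2-kPa and 233, 227 and 245 CPM on 20-kPa elastic gels. On viscoelastic gels it was at 221, 263 and 243 CPM at 2 kPa and 213, 201 and 206 CPM at 20 kPa. The stiffnesses did not overlap on either gel type, and the average was −0.50 ± 0.052 (adjusted p = 0.000727). The fall was larger on elastic gels, −0.76 against −0.23 (interaction, adjusted p = 0.00629). Cpeb2, a regulator of translation, showed the same order, −0.67 against −0.14 (interaction, adjusted p = 0.00242).

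Acot11, an acyl-CoA thioesterase, fell by 0.33 on elastic and 0.40 on viscoelastic gels (average adjusted p = 0.000771). Its level was 27.9, 25.6 and 26.3 CPM against 21.3, 22.2 and 19.9 CPM on elastic gels and 23.8, 22.2 and 22.8 CPM against 16.9, 17.5 and 17.7 CPM on viscoelastic gels. Plin4, a coat protein of lipid droplets, fell by 0.42 (adjusted p = 0.00116), and Chdh, a mitochondrial choline dehydrogenase, by 0.43 (adjusted p = 0.0031). Abca1, which exports cholesterol, fell by 0.29 (adjusted p = 0.00538) and Npc1, which moves cholesterol out of lysosomes, by 0.19 (adjusted p = 0.00798). Of the 24 tested cholesterol synthesis genes 2 rose (8.33%, near the 6.02% of all genes), among them Fdps with 0.19 on elastic and 0.18 on viscoelastic gels. Of 14 tested fatty acid synthesis genes 2 fell and none rose (14.3% called, against 10.1% of all genes), and none was called with the offsets for length and GC content.

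Receptors and regulators also fell. Lgr4, an R-spondin receptor of the WNT pathway, fell by 0.50 (adjusted p = 0.00103), from 135, 124 and 137 CPM to 88, 87.2 and 72.6 CPM on elastic gels and from 94, 107 and 91 CPM to 78.3, 68.9 and 85.4 CPM on viscoelastic gels. The transcription factor Ets2 fell by 0.35 (adjusted p = 0.00105), the receptor Notch3 by 0.39 (adjusted p = 0.00723), the kinase Dclk1 by 0.33 (adjusted p = 0.00209), and the semaphorin Sema6d by 0.42 (adjusted p = 0.00141). Of 22 tested WNT genes 2 rose and 1 fell (13.6% called, against 10.1% of all genes), none of them meeting the criterion on both gel types.

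Ribosomes are assembled in the nucleolus, where RNA polymerase I makes ribosomal RNA that is then modified, cut and joined to proteins imported from the cytosol. Of 62 tested ribosome biogenesis genes, 30 rose and none fell (48.4% against 6.02% of all genes called up), 61 had a positive averaged change, and 21 met the criterion for both gel types. Their median log2 change was 0.15 on elastic gels and 0.15 on viscoelastic gels, beside −0.0083 and 0.0080 over all tested genes. Summed over the 62 genes, the level was 4070, 4150 and 4140 CPM on 2-kPa and 4560, 4550 and 4980 CPM on 20-kPa elastic gels. It was 4050, 4220 and 4040 CPM on 2-kPa and 4630, 4530 and 4820 CPM on 20-kPa viscoelastic gels. The sums did not overlap between stiffnesses on either gel type, and the 2-kPa sums of both gel types lay in the same range. This list, like those for the ribosomal proteins, initiation factors, nucleotide synthesis, splicing, histone chaperones, the Ran cycle, chaperonins, prefoldin, actin monomer binding, zinc, autophagy, the clock and retinoids, was written after the values of its genes had been seen, so its count is a description.

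Lyar, a nucleolar protein, led this group with 26.2, 25 and 26.2 CPM against 32.1, 32.9 and 36.5 CPM on elastic gels and 25.6, 25.8 and 25.6 CPM against 33.8, 32 and 35.4 CPM on viscoelastic gels. Its log2 change was 0.39 on each gel type (average ± 0.044, adjusted p = 0.000727). The snoRNP genes Dkc1, Nop58 and Fbl, which guide the modification of ribosomal RNA, rose by 0.31, 0.29 and 0.18 (adjusted p = 0.00321, 0.00614 and 0.0459), and Fbl was not called with the replicate number as a block (adjusted p = 0.0753). The abundant nucleolar proteins Ncl and Npm1 rose by 0.26 each. Ncl was at 777, 800 and 812 CPM against 944, 906 and 1020 CPM on elastic gels and at 774, 872 and 769 CPM against 934, 958 and 1010 CPM on viscoelastic gels. No 20-kPa sample of Ncl fell within the 2-kPa range of its gel type. With offsets for exon length and GC content, 25 of the 62 genes were called up, and leaving out single samples gave 16 (without elastic 2 kPa replicate 2) to 32.

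Of 83 tested cytosolic ribosomal protein genes, 56 rose and none fell, all 83 had a positive averaged change, and 30 met the criterion for both gel types. Their median was 0.14 on elastic and 0.22 on viscoelastic gels, and the interaction passed for none of them. The summed level was 13900, 14100 and 13800 CPM against 15600, 15300 and 15100 CPM on elastic gels, and 17800, 15800 and 18200 CPM against 20100, 18800 and 20800 CPM on viscoelastic gels. The groups did not overlap, though replicate 2 was the lowest of both viscoelastic groups. Rpl30, for example, was at 97.7, 99.3 and 96.4 CPM against 111, 111 and 115 CPM on elastic gels and at 124, 118 and 126 CPM against 138, 138 and 150 CPM on viscoelastic gels (average 0.20, adjusted p = 0.00668). Ribosomal protein genes have many processed pseudogenes, and the counts do not show how reads shared with them were divided. Of 76 tested mitochondrial ribosomal protein genes, 20 rose and none fell, with medians of 0.073 and 0.18 on the gel types. Of 52 translation initiation factor genes, 11 rose and 1 fell. Without viscoelastic 20 kPa replicate 3, the counts that rose were 17 of 83 and 4 of 76 for the ribosomal protein lists, and without elastic 20 kPa replicate 3 it was 4 of 52 for the initiation factors.

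**Figure D3:**
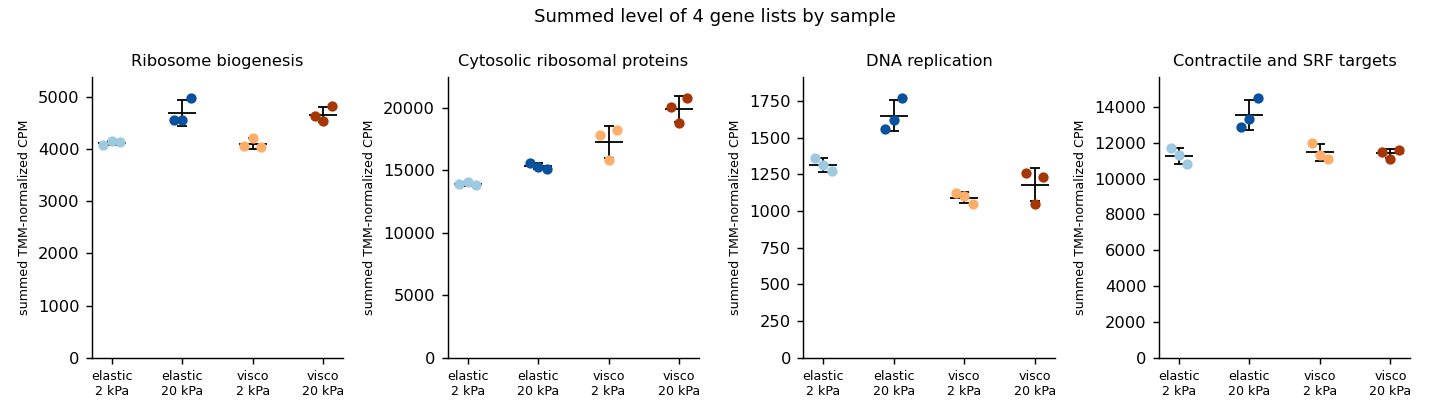
Summed TMM-normalized CPM of the tested members of 4 gene lists in each sample (points), with the mean and SD of the 3 replicates (black). Ribosome biogenesis sums did not overlap between 2 and 20 kPa on either gel type (4040 to 4220 CPM against 4530 to 4980 CPM), whereas contractile and SRF target sums were higher at 20 kPa only on elastic gels and overlapped on viscoelastic gels.

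Gene length moved with these calls. The exon length of the called genes had a median of 3227 bases where they rose and 6446 bases where they fell, against 4334 bases over all tested genes. In the shortest 10th of genes, 137 rose and 13 fell, and in the longest 28 rose and 127 fell. The median averaged change went from 0.060 in the shortest to −0.043 in the longest, and the gradient was steeper on viscoelastic gels (0.11 to −0.053) than on elastic gels (0.029 to −0.024). Ribosomal protein genes were short (median 1734 bases), ribosome biogenesis genes closer to the whole (3741.5 bases). As a measure per sample, the median deviation of the shortest 10th minus that of the longest was −0.135, −0.199 and −0.143 on 2-kPa and −0.033, −0.141 and −0.154 on 20-kPa elastic gels, which overlapped. It was 9.2e-05, 0.10 and 0.092 on 2-kPa and 0.21, 0.25 and 0.20 on 20-kPa viscoelastic gels, which did not. With offsets for length and GC content, 1029 genes were called for the average (654 up, 375 down) and 365 met the criterion on both gel types (275 up, 90 down). Of the cytosolic ribosomal protein genes, 19 of 83 were then called in place of 56, and the part that length itself played was not tested.

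**Figure D4:**
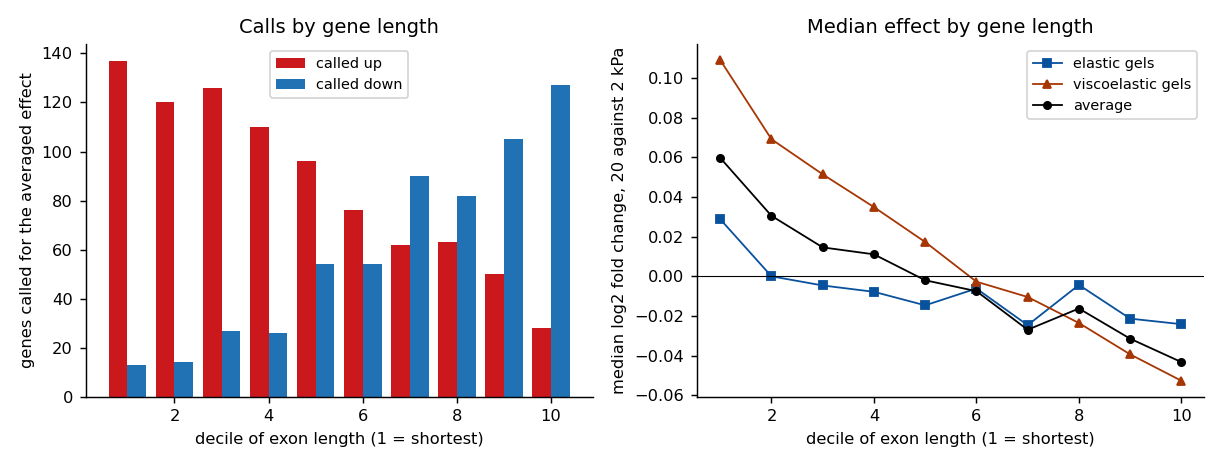
Left: the number of genes called up (red) and down (blue) for the averaged effect in each 10th of genes by exon length, from 1 (shortest) to 10 (longest). Right: the median log2 fold change of each 10th on elastic gels, on viscoelastic gels and on average, which passed from above 0 in the shortest to below 0 in the longest genes on both gel types.

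Dividing and growing cells make purines and pyrimidines anew, and a subset of these enzymes supplies the deoxynucleotides for replication. Of 34 tested genes of nucleotide synthesis 19 rose, none fell, all 34 had a positive averaged change and 11 met the criterion for both gel types. The medians were 0.20 on elastic and 0.15 on viscoelastic gels, 17 of 34 were called with the offsets for length and GC content, and 12 without viscoelastic 20 kPa replicate 3. Umps, which completes UMP synthesis, was at 33.7, 31.6 and 31 CPM against 40.2, 41.3 and 44.1 CPM on elastic gels and at 29.1, 30.7 and 27.6 CPM against 37, 32.7 and 34.5 CPM on viscoelastic gels (average 0.32 ± 0.046, adjusted p = 0.00185). Neither gel type showed overlap. Dut, which degrades dUTP, rose by 0.29 (adjusted p = 0.00321), and thymidylate synthase Tyms by 0.28 (adjusted p = 0.00532). Ppat, the first committed enzyme of purine synthesis, rose by 0.28 (adjusted p = 0.00622).

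In the list of 36 tested DNA replication genes, 22 rose, none fell and all 36 had a positive averaged change, with medians of 0.30 on elastic and 0.15 on viscoelastic gels. No single member was called on viscoelastic gels alone. The summed level was 1360, 1310 and 1270 CPM against 1560, 1620 and 1770 CPM on elastic gels, without overlap, and 1120, 1100 and 1050 CPM against 1260, 1050 and 1230 CPM on viscoelastic gels, where the groups overlapped. Mcm2, Orc6, Pcna, Prim1 and Tyms were among the 6 that met the criterion for both gel types. Prim1, the catalytic primase subunit, was at 20.2, 19.2 and 21.2 CPM against 26, 26.3 and 28.2 CPM on elastic gels and at 17.7, 19.3 and 17.3 CPM against 21.3, 19.2 and 22.3 CPM on viscoelastic gels. Replicate 2 on 20-kPa viscoelastic gels was within the 2-kPa range, and the average was 0.31 ± 0.051 (adjusted p = 0.00409). Mcm2, of the replicative helicase, was at 55.6, 52.4 and 48.3 CPM against 60.3, 62.5 and 70.7 CPM on elastic gels and at 37.8, 38.9 and 38 CPM against 48.2, 38.9 and 44.3 CPM on viscoelastic gels (average 0.25 ± 0.057, adjusted p = 0.015). The sliding clamp Pcna rose by 0.21 (adjusted p = 0.021; 0.0564 with the offsets). E2f1, which drives such genes at the start of S phase, rose by 0.21 (adjusted p = 0.0105). Without elastic 2 kPa replicate 2, 11 of the 36 genes were called.

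Of 30 tested genes of mitosis 14 rose, none fell and all 30 had a positive averaged change, but the medians were 0.35 on elastic and 0.033 on viscoelastic gels. Birc5, of the chromosomal passenger complex, and the checkpoint gene Mad2l1 met the criterion for both gel types, with averages of 0.30 and 0.25 (adjusted p = 0.00686 and 0.014). The proliferation marker Mki67 had 467, 486 and 427 CPM against 555, 521 and 670 CPM on elastic gels, but 350, 309 and 326 CPM against 364, 279 and 376 CPM on viscoelastic gels, where the groups overlapped, and its average was not called (0.19, adjusted p = 0.128). The sums of the 30 genes were 2150 to 2430 CPM on 2-kPa and 1920 to 2510 CPM on 20-kPa viscoelastic gels. The count of 14 fell to 3 without viscoelastic 20 kPa replicate 3.

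The promoters of replication genes often hold the letters of an E2F site. Taking the RefSeq start of each gene (GRCm38.p6), the 250 bases before it were searched on both strands for TTTCCCGC, TTTGGCGC, TTTCGCGC and TTTGCCGC, for the 10882 tested genes that matched by symbol. These letters were in 8 of 29 replication genes (27.6%) and in 361 of all 10882 (3.32%). They were in 13 of the 288 shared genes that rose (4.51%) and in 5 of the 132 that fell (3.79%), close to the share over all genes. Mcm6, Orc1 and Cdc6 are shown as replication genes that were called for the average (0.18, 0.41 and 0.30) and hold the letters, with the matches in capitals. None of these 3 met the criterion on both gel types, with unadjusted p on viscoelastic gels of 0.336, 0.185 and 0.158, and Mcm6 was not called with the offsets (adjusted p = 0.0707).
Mcm6, chr1:128359706-128359825, minus strand: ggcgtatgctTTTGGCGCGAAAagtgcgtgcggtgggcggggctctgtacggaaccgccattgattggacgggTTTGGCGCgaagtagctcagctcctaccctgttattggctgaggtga
Orc1, chr4:108579374-108579453, plus strand: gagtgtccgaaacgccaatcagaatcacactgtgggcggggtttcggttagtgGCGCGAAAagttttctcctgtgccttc
Cdc6, chr11:98908001-98908080, plus strand: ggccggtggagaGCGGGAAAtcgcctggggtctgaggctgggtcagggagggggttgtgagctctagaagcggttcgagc
The first stretch of capitals in Mcm6 holds overlapping matches of both strands. Mcm6 and Orc1 are shown up to the base before the start, Cdc6 from 150 to 71 bases before it.

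Histone chaperones carry histones to newly made DNA or exchange them. Of 21 tested genes 10 rose, none fell and 9 met the criterion on both gel types, with medians of 0.17 and 0.16. Nasp, which carries histones H1 and H3 with H4, rose by 0.34 (adjusted p = 0.00458), Hat1, which acetylates new histone H4, by 0.28 (adjusted p = 0.00734) and Anp32b by 0.26 (adjusted p = 0.00538). None of the 13 tested replication-dependent histone genes was called, and their medians had opposite signs, 0.23 on elastic and −0.25 on viscoelastic gels. In the splicing machinery, 10 of 25 tested snRNP genes rose and none fell, 8 of them on both gel types. The snRNP protein Snrpa1 rose by 0.36 (adjusted p = 0.00183) and the core proteins Snrpd1 and Snrpe by 0.28 and 0.24 (adjusted p = 0.00327 and 0.00532). The nuclear transport genes Ran and its partner Ranbp1 rose by 0.24 and 0.32 (adjusted p = 0.00686 and 0.00191), 2 of the 6 that rose among 19 tested genes of the Ran cycle and importins (2 of 19 without elastic 20 kPa replicate 3).

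Among folding factors, prefoldin and the CCT chaperonin work in sequence to fold actin and tubulin. Of 6 tested prefoldin genes 4 rose, and of 8 CCT genes 6 rose, with none falling in either. Pfdn1 was at 33.4, 33.4 and 34.1 CPM against 37.8, 38.2 and 43.5 CPM on elastic gels and at 38.2, 33.7 and 37.8 CPM against 44.5, 44.2 and 48.1 CPM on viscoelastic gels, without overlap (average 0.28 ± 0.048, adjusted p = 0.00489). Cct5, Cct6a and Cct8 met the criterion on both gel types with averages of 0.18, 0.19 and 0.14, though Cct8 was not called with the offsets or the block (adjusted p = 0.122 and 0.0516). The offsets for length and GC content left 2 of 8 CCT genes and 3 of 6 prefoldin genes, and without elastic 2 kPa replicate 1 2 CCT genes were called. The tubulin gene Tuba1b rose by 0.27 (adjusted p = 0.00314), from 57.5, 52.3 and 52 CPM to 63.6, 60.3 and 67 CPM on elastic gels and from 50, 53.5 and 48.6 CPM to 63.7, 61.3 and 63.4 CPM on viscoelastic gels. The mitochondrial chaperonins Hspd1 and Hspe1 rose by 0.29 and 0.26 (adjusted p = 0.00409 and 0.00538). Of 31 tested proteasome genes 14 rose, none fell and all 31 had a positive averaged change, with small medians of 0.081 and 0.14. That count was 6 with the offsets, 5 with the replicate number as a block and 2 without viscoelastic 20 kPa replicate 3.

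Of 12 tested thymosin, profilin, cofilin and cyclase-associated protein genes, 6 rose, none fell and 5 met the criterion on both gel types. Beside Tmsb10, Tmsb4x rose by 0.34 (adjusted p = 0.00183), the severing protein Cfl1 by 0.19 (adjusted p = 0.00994), and the profilin Pfn1 by 0.19 (adjusted p = 0.0123). Cfl1 was at 469, 440 and 427 CPM against 504, 488 and 504 CPM on elastic gels and at 454, 450 and 453 CPM against 528, 520 and 539 CPM on viscoelastic gels, with no overlap. The GTPase Rhoa rose by 0.15 (adjusted p = 0.0319; 0.0577 with the block).

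Of 31 tested contractile genes and SRF targets, 18 rose and none fell for the average, while their median change was 0.35 on elastic gels but −0.024 on the viscoelastic ones. The interaction passed for 14 of the 31. Without elastic 2 kPa replicate 2, 11 of the 31 were called. Acta2, smooth muscle actin, was at 563, 530 and 491 CPM against 722, 795 and 829 CPM on elastic gels, but at 673, 629 and 618 CPM against 597, 517 and 620 CPM on viscoelastic gels. Its average was called (0.21, adjusted p = 0.0322) although the viscoelastic groups overlapped and the signs differed (interaction, adjusted p = 0.00163). That call was lost with the block (adjusted p = 0.0557), the offsets (0.104) and the additive model (0.289), and without any 1 of 7 of the 12 samples. The 6 that followed stiffness on both gel types were Acta1, Actb, Tagln2, Myl6, Tpm1 and Tpm3. Acta1, skeletal muscle actin, was at 5.48, 4.09 and 5.55 CPM against 5.65, 8.58 and 10 CPM on elastic gels and at 4.67, 5.95 and 5.77 CPM against 10.5, 7.75 and 9.63 CPM on viscoelastic gels (average 0.72 ± 0.13, adjusted p = 0.00612). Its samples did not overlap, though only narrowly on elastic gels, and its change of 0.68 and 0.76 was the largest of the 6. Cytoplasmic actin Actb was at 2170, 2040 and 1990 CPM against 2540, 2400 and 2710 CPM and at 2160, 2380 and 2020 CPM against 2460, 2610 and 2590 CPM (average 0.26 ± 0.057, adjusted p = 0.0122).

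The CArG box, the site of SRF, was found in the 250 bases before the start in 8 of the 27 contractile and SRF genes with a promoter in RefSeq (29.6%) and in 122 of all 10882 (1.12%). Acta1 and Cnn2 are shown because both hold it and differ in their course: Acta1 rose on both gel types, whereas Cnn2, a calponin, rose by 0.43 on elastic gels and changed by 0.010 on viscoelastic gels (interaction, adjusted p = 0.00477). The capitals mark the match.
Acta1, chr8:123894776-123894875, minus strand: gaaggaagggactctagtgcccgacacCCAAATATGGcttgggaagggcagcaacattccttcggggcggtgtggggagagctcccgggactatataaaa
Cnn2, chr10:79988520-79988599, plus strand: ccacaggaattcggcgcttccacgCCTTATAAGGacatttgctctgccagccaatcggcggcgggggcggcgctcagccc
The box was in 6 of the 288 shared genes that rose (2.08%) and in 1 of the 132 that fell (0.758%). The letters of E-box, TEAD, CCAAT, AP-1 and ETS sites were searched too. TEAD letters (GGAATG) were in 10 of the 27 contractile and SRF genes (37%) and in 10.9% of all. ETS letters (CCGGAAG) were in 18.4% of the shared genes that rose, 9.09% of those that fell and 13.2% of all.

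YAP and TEAD targets are often used as a readout of stiffness. Of 23 tested, 2 rose and 3 fell for the average (21.7% called, against 10.1% of all genes), and the interaction passed for 8 (7.56% of all genes). Medians were 0.13 on elastic and −0.10 on viscoelastic gels. None met the criterion on both gel types, which is near the 3.6% of all genes in a list of this size. Ankrd1 was at 3.29, 3.97 and 3.82 CPM against 7.05, 8.42 and 11.9 CPM on elastic gels and at 6.4, 7.61 and 5.51 CPM against 5.36, 5.34 and 6.3 CPM on viscoelastic gels, with overlap on viscoelastic gels. Its averaged change was 0.55 (adjusted p = 0.0138), with 1.30 on elastic and −0.20 on viscoelastic gels (interaction, adjusted p = 0.00169). Ccn1 was higher at 20 kPa by 0.40 and 0.21 without passing for the average (adjusted p = 0.0767), and Ccn2 had opposite signs (0.31 and −0.24, average adjusted p = 0.827). Of 17 tested integrins 2 fell and none rose (11.8% called, against 10.1% of all genes). The list as a whole did not fall: 10 of the 17 had a positive averaged change. Its medians were 0.11 on elastic and −0.0031 on viscoelastic gels. Itga9 fell on both gel types (average −0.19, adjusted p = 0.019, and 0.0642 with the offsets) and Itga10 for the average. Of 28 focal adhesion genes 2 rose and 3 fell, and none met the criterion on both gel types (6.02%, 4.11% and 3.6% over all genes). Of 16 tested genes of the lamina and its nuclear envelope partners 3 rose (18.8% against 6.02% of all genes called up). They were Lmnb1, Tmpo and the emerin gene Emd, the last on both gel types (0.15, adjusted p = 0.04). Emd was not called with the offsets or the block (adjusted p = 0.0774 and 0.0656). Lmna, the A-type lamin, had an averaged change of 0.053 (adjusted p = 0.596).

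**Figure D5:**
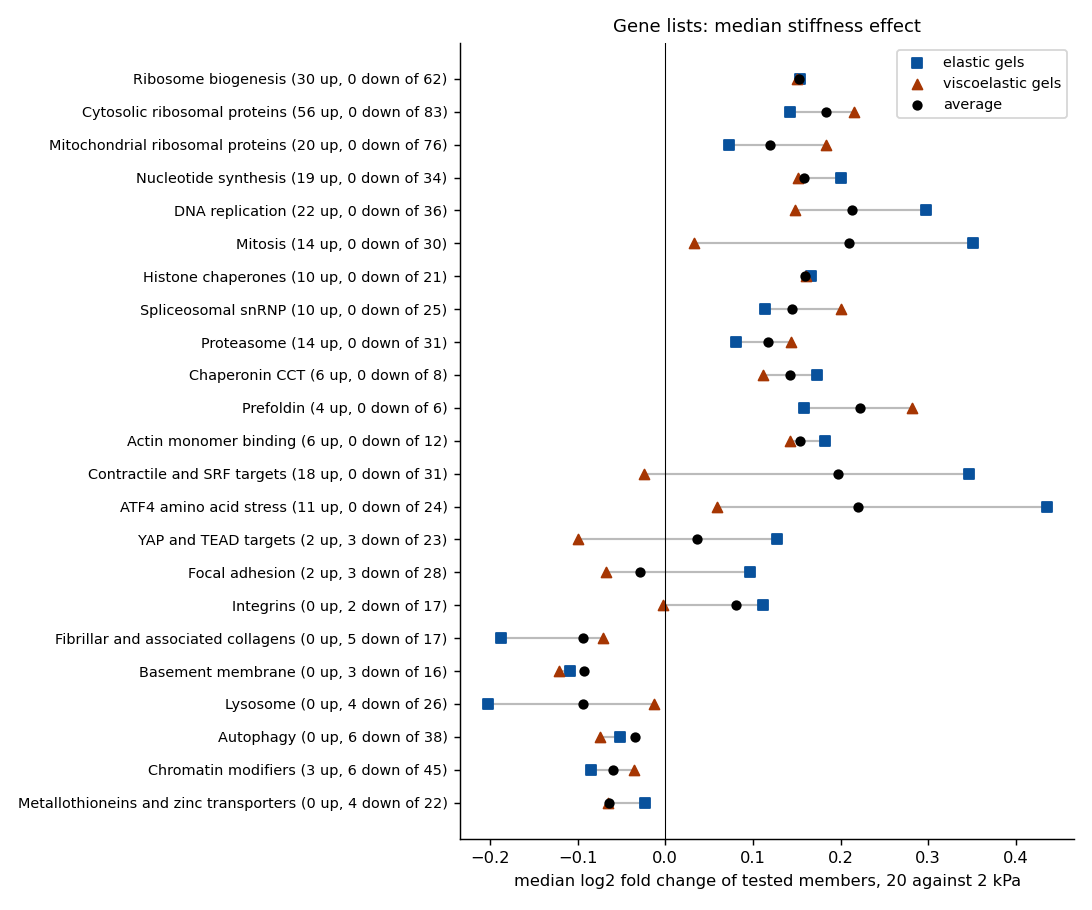
Median log2 fold change from 2 to 20 kPa of the tested members of 23 gene lists on elastic gels (squares), on viscoelastic gels (triangles) and on average (circles), with the number called up and down for the average of those tested. Ribosome biogenesis and histone chaperone medians nearly coincide between the gel types, while those of contractile genes, ATF4 targets, mitosis genes and YAP targets lie far apart.

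Several matrix genes fell for the average. Fibronectin, Fn1, an abundant matrix glycoprotein, was at 53400, 56700 and 48800 CPM against 43600, 44300 and 47100 CPM on elastic gels and at 45800, 37500 and 44000 CPM against 33200, 30700 and 31000 CPM on viscoelastic gels. The stiffnesses did not overlap on either gel type, and the average fell by 0.33 (adjusted p = 0.02), though the elastic contrast had an unadjusted p of 0.0554 and with the offsets the average had an adjusted p of 0.0629. Of 17 tested fibrillar and associated collagens 5 fell and none rose, and with the offsets 1 fell. Col6a2 alone met the criterion on both gel types (average −0.24, adjusted p = 0.0137), and it was not called with the offsets (adjusted p = 0.0695). Col1a1, the main fibrillar collagen, had an averaged change of 0.0055 (adjusted p = 0.964). Among 16 basement membrane genes 3 fell, with Col4a5 on both gel types: 214, 232 and 223 CPM against 185, 199 and 193 CPM on elastic gels and 217, 194 and 192 CPM against 160, 145 and 158 CPM on viscoelastic gels (average −0.30 ± 0.045, adjusted p = 0.00253). Xylt1, which starts the sugar chains of proteoglycans, fell by 0.37 (adjusted p = 0.00321), the hyaluronan synthase Has2 by 0.25 (adjusted p = 0.0105) and the protease inhibitor Serpine2 by 0.32 (adjusted p = 0.0052). Of the 19 tested proteoglycan and hyaluronan genes Has2 was the only one called (5.26%, against 10.1% of all genes).

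Of 38 tested autophagy genes 6 fell (15.8% against 4.11% of all genes called down) and none rose, and 5 of them met the criterion on both gel types: Ulk1, Atg2a, Tecpr1, Plekhm1 and Nbr1. The starter kinase Ulk1 was at 49.7, 49.1 and 49 CPM against 40, 45.4 and 39.3 CPM on elastic gels and at 45.9, 46.2 and 48.1 CPM against 42.3, 39.7 and 37.2 CPM on viscoelastic gels (average −0.24 ± 0.045, adjusted p = 0.00707). Its groups did not overlap. The median over the list was small, −0.034, and with the offsets for length and GC content none of the 38 was called (Ulk1 −0.14, adjusted p = 0.0622). Of 26 tested lysosome genes 4 fell, of which Npc1 did so on both gel types, and 24 had a negative averaged change with medians of −0.20 on elastic and −0.013 on viscoelastic gels. Of 18 tested clock genes 2 fell and none rose (11.1% called, against 10.1% of all genes). Cry2 and Tef fell on both gel types, by 0.19 and 0.16 (adjusted p = 0.019 and 0.0278), and neither was called with the offsets (adjusted p = 0.141 and 0.179).

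Both tested metallothioneins and 2 zinc transporters fell on both gel types. Metallothioneins bind zinc and copper, and their genes are switched on by the zinc sensor MTF1 at metal response elements, as is Slc30a1, which exports zinc. Mt2 was at 34, 33.2 and 29.6 CPM against 26.3, 23.6 and 25 CPM on elastic gels and at 28, 26 and 27.2 CPM against 21.9, 18.5 and 20.5 CPM on viscoelastic gels. No sample overlapped, and the average was −0.39 ± 0.053 (adjusted p = 0.00141). Mt1 was at 64.4, 60.4 and 45.8 CPM against 41.7, 40.9 and 43.7 CPM on elastic gels and at 46.7, 48.5 and 47.9 CPM against 41.9, 34.3 and 39.7 CPM on viscoelastic gels, again without overlap (average −0.37 ± 0.072, adjusted p = 0.00766).

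Slc30a1 was at 34.1, 36.4 and 36.3 CPM against 29.4, 31.3 and 31.7 CPM on elastic gels and at 32.8, 35.3 and 29.7 CPM against 28.4, 28.5 and 28.3 CPM on viscoelastic gels. It did not overlap on either gel type and fell by 0.20 (adjusted p = 0.0146). Slc39a10, which imports zinc, fell by 0.38 (adjusted p = 0.00484). These were 4 of 22 tested metallothionein and zinc transporter genes (18.2% against 4.11% of all genes called down), with none that rose. The list was written after its values had been seen. Its medians were −0.023 on elastic and −0.065 on viscoelastic gels, and 7 of the 22 had a positive averaged change. All 4 genes that fell were called with the offsets for length and GC content and with the replicate number as a block. Mtf1 itself had an averaged change of 0.016 (adjusted p = 0.858).

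The core of the metal response element, searched as TGCACNC or TGCGCNC on both strands, was found in the 250 bases before the start of Mt2, Mt1 and Slc30a1, which are shown with the matches in capitals up to the base before the start. The core is short and was in 3275 of 10882 promoters (30.1%), in 93 of the 288 shared genes that rose (32.3%) and in 37 of the 132 that fell (28%).
Mt2, chr8:94172388-94172617, plus strand: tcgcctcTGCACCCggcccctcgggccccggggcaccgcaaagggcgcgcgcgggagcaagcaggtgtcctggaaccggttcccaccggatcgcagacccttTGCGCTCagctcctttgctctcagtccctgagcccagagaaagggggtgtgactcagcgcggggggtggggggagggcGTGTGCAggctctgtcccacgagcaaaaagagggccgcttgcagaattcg
Mt1, chr8:94178969-94179088, plus strand: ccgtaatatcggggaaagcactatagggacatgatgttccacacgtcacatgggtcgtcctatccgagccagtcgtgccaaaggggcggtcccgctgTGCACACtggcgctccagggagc
Slc30a1, chr1:191906661-191906780, plus strand: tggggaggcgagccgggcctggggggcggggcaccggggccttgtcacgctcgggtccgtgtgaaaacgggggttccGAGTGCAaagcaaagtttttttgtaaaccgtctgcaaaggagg
Mt2 held 3 matches and the others 1 each in the stretch shown.

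Of 19 tested retinoid genes 1 rose and 2 fell (15.8% called, against 10.1% of all genes). Cyp26b1, which degrades retinoic acid, was at 301, 327 and 295 CPM against 240, 250 and 272 CPM on elastic gels and at 231, 226 and 231 CPM against 201, 203 and 200 CPM on viscoelastic gels, without overlap (average −0.23 ± 0.043, adjusted p = 0.00599). Dhrs3, which reduces retinal, fell by 0.27 (adjusted p = 0.0111), and Crabp1 rose by 0.67 (adjusted p = 0.00183). With the offsets Cyp26b1 had an adjusted p of 0.0551. Among secreted signals, Fgf7, keratinocyte growth factor, rose from 214, 233 and 217 CPM to 320, 285 and 300 CPM on elastic gels and from 308, 287 and 285 CPM to 311, 368 and 327 CPM on viscoelastic gels (average 0.32 ± 0.051, adjusted p = 0.00321). The chemokine Ccl2 rose by 0.40 (adjusted p = 0.0138). Its viscoelastic groups overlapped, with 14.1, 17.6 and 13.1 CPM at 2 kPa and 17.4, 20.1 and 16.5 CPM at 20 kPa. Among 24 tested chemokine and cytokine genes 5 rose, Ccl2 included, and none fell (20.8% against 6.02% of all genes called up). The median change of this list was larger where gels were elastic (0.397) than where they were viscoelastic (0.0615). The interaction passed for 10 of the 24 (7.56% of all genes), and only Ccl2 met the criterion on both gel types.

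Of 24 tested ATF4 targets, genes for amino acid supply under stress, 11 rose and none fell, with median changes of 0.44 (elastic) and 0.059 (viscoelastic). In all, 5 were called without viscoelastic 20 kPa replicate 3. Stc2 and the cystine transporter Slc7a11 met the criterion on both gel types, at levels of 3.31 to 18.7 CPM and 1.43 to 4.73 CPM. Among 45 tested chromatin modifiers 3 rose and 6 fell (20% called, against 10.1% of all genes), and with the offsets 3 rose and 1 fell. Ezh2, the methyltransferase of histone H3 lysine 27, rose by 0.21 (adjusted p = 0.00849), and Hdac6, the tubulin deacetylase, and Kmt2b fell by 0.23 and 0.14 (adjusted p = 0.00799 and 0.0308). All 3 did so on both gel types, while Kmt2b was not called with the offsets (adjusted p = 0.812). The chromatin protein Hmga2 rose by 0.59 (adjusted p = 0.00794), from 109, 99.5 and 89.8 CPM to 122, 151 and 213 CPM on elastic gels and from 87.2, 60.9 and 64.2 CPM to 106, 92.6 and 97.7 CPM on viscoelastic gels.

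The average also includes genes that responded on each gel type in opposite directions. Adamts9, a matrix protease, was at 96.4, 84.5 and 74.3 CPM against 35.1, 34 and 34 CPM on elastic gels and at 38.5, 45.5 and 45 CPM against 64.2, 70 and 65.2 CPM on viscoelastic gels. Its averaged change of −0.34 (adjusted p = 0.00558) was called although it rose on viscoelastic gels. Col14a1 did the same, and Flt4, a VEGF-C receptor, and Ccdc9b moved in the reverse sense and had averages that were not called (0.11 and −0.072, adjusted p = 0.372 and 0.421). At the threshold of the average, Suv39h1 (0.14) and Gpr107 (−0.12) lay just inside with an adjusted p of 0.0499 each, and Etaa1 (0.19) and Pde1b (−0.55) just outside with 0.05 each.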

How the data were processed

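RNA was sequenced from 12 samples, 3 in each of 4 groups. After trimming (Trimmomatic) and alignment to mm10 (STAR), the authors obtained gene counts from featureCounts with GENCODE genes, and the deposited table holds these counts unnormalized, under gene symbols. Not given in the sources used here are the GENCODE release, strandedness and the treatment of multi-mapping reads. The authors called genes with DESeq2 at an adjusted p of 0.05, which is an alternative here.

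Testing used edgeR 4.0.16 (R 4.3.3). Genes were kept by filterByExpr given the 4 groups, at a minimum count of 10 and a minimum total of 15, and TMM factors were applied, in one quasi-likelihood fit of all 12 samples with a coefficient per group. The averaged effect was the mean of the contrasts of 20 against 2 kPa on the 2 gel types, and p-values were BH-adjusted over 14542 genes. No column of the table was left without a sample. Totals of 36626221 to 43612804 counts keep counting noise below the spread between replicates for all but genes with low counts. Replicate pairs of one group differed by 11.17 to 55.54 times counting noise, so that no sample was counted as a duplicate.

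The members of the lists, the criteria and the tests were chosen with earlier results of these data known. Named genes were, by adjusted p, the top 12 in each direction among called genes of at least 5 CPM whose stiffnesses did not overlap on either gel type, up to 4 list members per direction that met the criterion on both gel types, 2 genes per direction called oppositely on the gel types, and those next to the threshold. Other genes were named after their values were seen. One gene that the rule names is not reported here. Gene positions, exon length and GC content came from GENCODE M21 and were known for 14302 tested genes (98.3%). Promoters came from RefSeq (GRCm38.p6), with the first start listed for a gene. Lists were described by counts and medians, without set tests. The fit was checked on simulated counts. Alternatives were DESeq2 1.42.0 and its size factors, total counts, no filter, limma 3.58.1 voom with sample quality weights, an additive model, the replicate number as a block, offsets for length and GC content (loess span 0.3), stricter thresholds, each gel type alone and each sample left out. Figures were drawn with matplotlib 3.10.9.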

Additional observations from a re-analysis of the deposited data

Results flagged for a closer look

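For 13 of the genes described, a difference in the stiffness effect between the gel types by the interaction test is given here. The test was edgeR's quasi-likelihood test, BH-adjusted over all tested genes. The difference is the log2 change on elastic gels subtracted from the one on viscoelastic gels. The adipocyte markers Fabp4 and Cebpa also passed this test, and genes named without values were not all covered. For Adamts9 the difference was 1.93 (adjusted p = 1.35e-06) and for Col14a1 1.53 (adjusted p = 7.94e-06), both lower at 20 kPa on elastic gels and higher on viscoelastic gels. For Flt4 it was −1.36 (adjusted p = 0.000103) and for Ccdc9b −1.09 (adjusted p = 4.44e-05), with the directions exchanged. Apbb1ip (−0.353, adjusted p = 0.0447) and Steap3 (0.529, adjusted p = 0.00629) moved in the same direction on both gel types, with the larger change on elastic gels, as did Tmsb4x (−0.365, adjusted p = 0.0358), Crabp1 (−0.696, adjusted p = 0.0405) and Cpeb2 (0.524, adjusted p = 0.00242). The change was positive on elastic gels and close to 0 or negative on viscoelastic gels for Acta2 (−0.714, adjusted p = 0.00163), Ankrd1 (−1.50, adjusted p = 0.00169) and Cnn2 (−0.42, adjusted p = 0.00477). The lysophospholipase Enpp2 had a difference of 1.62 (adjusted p = 0.000586) and an averaged change of −0.93, from 29.4, 23.1 and 22.8 CPM against 6.82, 8.35 and 7.37 CPM on elastic gels, while viscoelastic gels were at 4.77, 7.78 and 6.25 CPM against 6.62, 4.8 and 5.89 CPM.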

How the results depend on the processing

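The count of 1474 genes for the average was 1465 with DESeq2's size factors, 1458 with total counts, 1641 without the filter, 1838 with DESeq2's Wald test and 1141 with the replicate block, and the count of 523 genes with a shared direction was 533, 540, 537, 517 and 444. Voom with quality weights gave 2689 and 918, and 1022 genes on viscoelastic gels alone. The additive model, which gives only the average, called 604. An adjusted p under 0.01 left 303 for the average, 176 shared, 855 on elastic gels, 9 on viscoelastic gels and 400 for the interaction. Against a fold of 1.2, the counts were 2 (Enpp2 and Dynap) for the average, 1 shared (Dynap), 359 on elastic gels, 3 on viscoelastic gels and 374 for the interaction. Offsets for length and GC content gave 1029 and 365, and 166 on viscoelastic gels (86 up and 80 down, in place of 230 and 101). With the replicate block added they gave 787, 300 and 82. For the 331 genes on viscoelastic gels, the replicate block gave 154, no filter 653, DESeq2's Wald test 760 and the 6 samples of that gel type alone 38. Leaving out 1 sample gave 702 to 1860 genes for the average and 275 to 668 shared, both lowest without viscoelastic 20 kPa replicate 3. The count for the average also fell by over 1.5 times without elastic 2 kPa replicates 1 (966), 2 (792) or 3 (976), elastic 20 kPa replicate 3 (822), viscoelastic 2 kPa replicate 3 (823) or viscoelastic 20 kPa replicate 1 (908), and the shared count without elastic 2 kPa replicate 2 (299), elastic 20 kPa replicate 3 (332) or viscoelastic 2 kPa replicate 3 (315). The ranges were 1063 to 2369 on elastic gels, 9 to 351 on viscoelastic gels and 670 to 1182 for the interaction. The cause of these shifts was not tested.

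The genes picked by the naming rule, with other genes described, were followed one by one through the alternatives. Not followed were the tested genes Gm5820, Tagln2, Myl6, Nbr1, Itga10, Lmnb1, Tmpo, Fabp4, Cebpa, Sox5 and Cd68. None of the followed genes that were called changed the sign of its average in an alternative. Genes that were not called did: with single samples left out, Ccn2 ranged from −0.024 to 0.0831, Col1a1 from −0.0238 to 0.0405 and Mtf1 from −0.00709 to 0.0326, Col1a1 was at −0.00198 with voom, and Col2a1 at 0.0214 with the offsets and 0.0274 with the offsets and the replicate block. The replicate numbers were not taken as pairs, since deviations from the group means did not correlate in every pair of 2 and 20 kPa: r was −0.160 to −0.018 on elastic gels and 0.18, 0.31 and 0.048 for viscoelastic replicates 1, 2 and 3. Among the genes followed, which include some not described here, 13 lost their call with the replicate block and 26 with the offsets for length and GC content.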
